A study of Homo sapiens with 12 samples.

Results

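The combined effect of losing *RB1* and of CDK4 and CDK6 inhibition was examined by comparing *RB1*-knockout cells in abemaciclib with control cells in the solvent. ZR-75-1 is an oestrogen receptor-positive luminal breast cancer line. The 6 libraries were taken by their titles from the 12 of the series. The 3 reference libraries came from cells with a non-targeting guide (sgControl) in DMSO. The 3 others came from cells edited by CRISPR with a guide against *RB1* and given 500 nM abemaciclib, an inhibitor of CDK4 and CDK6. All cells were of the same line, had been through editing and were harvested after 5 days of drug or of an equal volume of DMSO. The other 6 libraries, sgControl in abemaciclib and *RB1* knockout in DMSO with 3 replicates each, entered the fit and serve to divide the difference into steps. The study's methods describe *RB1*-knockout clones grown from single sorted cells of the edited bulk population. The number of clones is not given in the sources used here, so differences between clones and the effect of *RB1* cannot be told apart. The replicates are called biological, but the labels do not say what separated them. The p-values set each difference against the spread between replicate libraries within groups, estimated from all 12 libraries.

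Rb, the product of *RB1*, holds the E2F transcription factors in check, and CDK4 and CDK6 with cyclin D release them by phosphorylating Rb. With Rb intact, inhibitors of these kinases stop cells before S phase, while cells without Rb can keep cycling in the drug. Arrest by itself changes many transcripts, so knockout cells show which transcripts differ when a treated and an untreated population both express the proliferation genes.

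The 6 libraries held 49711542 to 81636393 counts, and 22547 to 23837 genes were detected in each. Mitochondrial genes took 2.82 to 3.99% of the counts in sgControl DMSO and 5.44 to 7.39% in the treated knockout. No replicates agreed within sampling noise. Replicate 1 of sgControl DMSO stood apart, with a chi-square per gene of 50.2 and 105.1 against replicates 2 and 3, which differed from each other by 18.1. In it, genes with exons under 1500 bases in all were higher than in replicates 2 and 3 by a median of 0.34 on the log2 scale, and those over 12000 bases differed by −0.24. The median difference between the groups lay between −0.11 and 0.08 over all length classes, and between −0.05 and 0.03 without that replicate. The part of transcript length in the gene lists was not tested. All 13 luminal marker genes were expressed in both groups. Of these, 4 were higher, 7 lower and 2 not called, with a median log2 fold change of −0.32. *TFF1* (−3.01) and *ESR1* (−0.92) were among the 7 that fell. *GATA3*, named after its value was seen, was not called, at 30661 and 29478 mean normalised counts (adjusted *P* = 0.534, DESeq2). Among 13 haematopoietic markers, 7 were at 3 counts or fewer in all 6 libraries, *CD3E* and *CD3D* had none, and the markers summed to 0.503 to 1.14 CPM (counts scaled by the library total) in sgControl DMSO and 0.805 to 1.15 in the treated knockout. Only *CSF1R* of the 6 tested was higher. The 11 fibroblast and endothelial markers summed to 37 to 47.8 and 48.6 to 51.3 CPM, with 3 of 5 tested members higher: *LUM* (2.98 ± 0.55), *VWF* (1.65 ± 0.24) and *COL1A1* (0.22 ± 0.07), the last not past the threshold with total-count factors (adjusted *P* = 0.0571), and *LUM* named after its value was seen. Of 5 basal markers tested, *KRT17* and *ACTA2* were higher and *OXTR* lower, and *SOX10* had no count.

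The targeted gene was examined first. *RB1* (GRCh38 chromosome 13, 48303744 to 48599436) measured 4154, 4825 and 4752 normalised counts in the sgControl DMSO libraries, that is counts divided by a size factor, and 54.4, 44.2 and 63.5 in the treated knockout. The groups were far apart and no library went against its label. The log2 fold change was −6.40 ± 0.14 (SE), with an adjusted *P* too small to be represented. Of 21529 genes tested with DESeq2, 9074 (42.1%) had an adjusted *P* under 0.05. They were 4640 genes higher (21.6%) and 4434 lower (20.6%) in the treated knockout, and the median of all tested genes was 0.03 on the log2 scale. Changes of at least 2-fold leaned to the higher side, with 1670 genes higher and 476 lower, or 571 and 186 of those with a mean count of at least 100. The 3 libraries of each group did not overlap for 8679 of the called genes, and for 10756 (50%) of those tested. Genes on chromosome 13, where *RB1* lies, were lower as a group: 193 with a mean count of at least 100 had a median of −0.57, and the 11264 elsewhere one of −0.03. Of 343 tested there, 147 were lower and 42 higher.

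Proliferation genes were expressed at similar levels in both groups. Of 97 listed genes of S phase and of G2 and mitosis, 93 passed a test that the difference was smaller than 2-fold, 40 of 43 in S phase and 53 of 54 in G2/M. Among all genes that could be tested this way the share was 68.9%, 11952 of 17352. That share includes genes with few counts, which pass such a test less easily, and the share at like expression was not computed. Of 11889 tested genes with a mean count of at least 100, only 571 were called at least 2-fold higher and 186 at least 2-fold lower. A difference under 2-fold was therefore not particular to proliferation genes. *MKI67* measured 21670.3, 33374 and 29062 normalised counts in sgControl DMSO and 26768, 32037 and 29666 in the treated knockout. This gene encodes the proliferation antigen Ki-67, and the groups overlapped (0.07 ± 0.20, adjusted *P* = 0.816). In sgControl cells the same gene differed between abemaciclib and DMSO by −6.25 ± 0.20. The median log2 fold change in the combined comparison was −0.06 for S phase and −0.23 for G2/M genes. The drug in sgControl cells, measured against the same DMSO libraries, gave medians of −1.89 and −2.43. In RNA from a bulk population, a change in the share of cells that express a gene and a change in RNA per cell cannot be told apart.

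**Figure D1:**
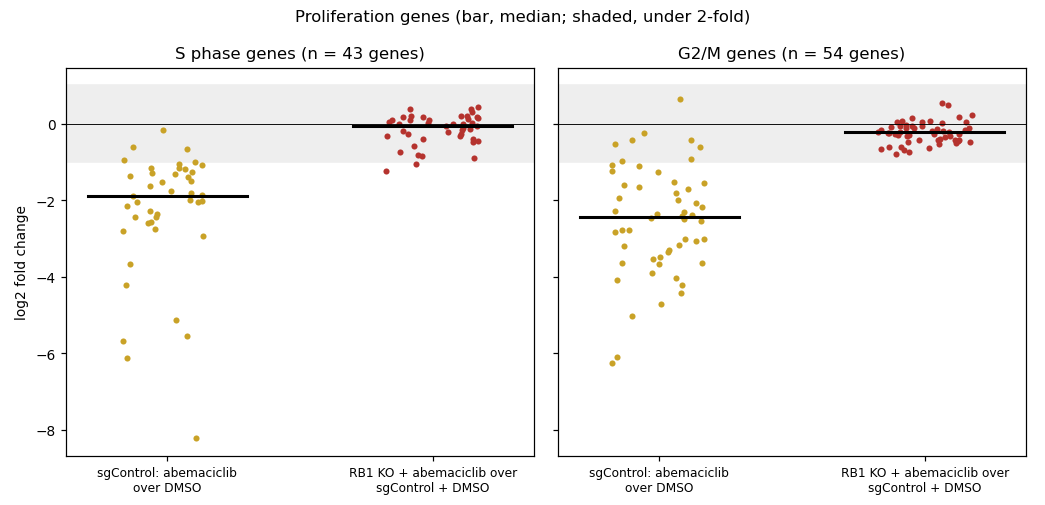
Log2 fold changes of 43 S phase genes (left) and 54 G2/M genes (right), 1 point per gene, for abemaciclib over DMSO in sgControl cells and for treated knockout over untreated sgControl, which share the sgControl DMSO libraries. The medians are −1.89 and −0.06 for S phase and −2.43 and −0.23 for G2/M, and nearly all points of the combined comparison lie within the shaded 2-fold band.

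Within that narrow range G2/M genes leaned to the lower side, with 2 of 54 higher and 34 lower. In S phase 9 of 43 genes were higher and 17 lower. Of 11889 tested genes with a mean count of at least 100, 3305 were higher and 4035 lower, so no direction is read for S phase. *CDK1*, the mitotic kinase, measured 5506, 5149.8 and 5235 and then 3304, 3243 and 3223 counts, without overlap (−0.70 ± 0.06, adjusted *P* = 9.3e-34). The ribonucleotide reductase subunit gene *RRM2* (−1.05 ± 0.05), which has near-identical pseudogenes, fell by over 2-fold. The replication helicase factor *CDC45* (−0.91 ± 0.07) and the thymidine kinase *TK1* (−0.97 ± 0.08) fell almost as far. Of the other G2/M genes the histone chaperone *ANP32E* (−0.74 ± 0.08), the kinetochore gene *NUF2* (−0.80 ± 0.08), and the chromatin protein *HMGB2* (−0.61 ± 0.05) were lower, as was the nuclear lamina gene *LMNB1* (−0.19 ± 0.04), which is on neither list. Cyclin E2, *CCNE2* (0.43 ± 0.08), and the chromatin assembly gene *CHAF1B* (0.37 ± 0.07) were higher, as were *CBX5* (0.54 ± 0.09) and *GTSE1* (0.17 ± 0.06). *GTSE1* did not pass with total-count factors (0.104), with only the 6 libraries fitted (0.0888), without sgControl DMSO replicate 2 (0.0532), without treated knockout replicate 2 (0.0818) and without treated knockout replicate 3 (0.0665), adjusted *P* in parentheses.

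Among 33 tested genes of cell cycle control, 10 were higher, 13 lower and 10 not called. *CCNE1* measured 1209, 1199.5 and 1261 normalised counts in sgControl DMSO and 2163, 2268 and 2235 in the treated knockout, a complete separation (0.86 ± 0.06, adjusted *P* = 1.66e-38). Cyclin E1 partners CDK2 downstream of Rb. *CDK6* (1.33 ± 0.19), a drug target, and the CDK inhibitor *CDKN1C* (0.62 ± 0.19) were also higher. Lower, besides *RB1*, were *TFDP1* (−0.56 ± 0.04), the E2F partner on chromosome 13, the Rb relative *RBL1* (−0.39 ± 0.11), the MuvB subunit *LIN9* (−0.58 ± 0.08), *E2F1* (−0.21 ± 0.06) and cyclin D1, *CCND1* (−0.25 ± 0.05). The CDK inhibitor *CDKN2A* (0.22 ± 0.08) passed, but not with only the 6 libraries fitted (0.087), without sgControl DMSO replicate 2 (0.0957), without sgControl DMSO replicate 3 (0.0905), without treated knockout replicate 2 (0.057) and without treated knockout replicate 3 (0.0667), adjusted *P* in parentheses.

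Promoter sequence was examined as a description. A promoter here is 250 bases before to 50 after the start of a gene (RefSeq, GRCh38.p14), and 22114 symbols had 1 entry. The E2F-type letters TTTGGCGC, on either strand, were in 6 of 23 S phase promoters (26.1%) and 0.647% of all promoters. The letters TTTGAA, known as the cell cycle homology region, were in 27 of 36 G2/M promoters (75%) and 16% of all. The promoter of *CDC6*, a replication licensing gene at −0.34 ± 0.04 in the combined comparison that was picked for display after its value was seen, is printed with the E2F-type letters in capitals.
CDC6 (chr17:40287629-40287928, plus strand): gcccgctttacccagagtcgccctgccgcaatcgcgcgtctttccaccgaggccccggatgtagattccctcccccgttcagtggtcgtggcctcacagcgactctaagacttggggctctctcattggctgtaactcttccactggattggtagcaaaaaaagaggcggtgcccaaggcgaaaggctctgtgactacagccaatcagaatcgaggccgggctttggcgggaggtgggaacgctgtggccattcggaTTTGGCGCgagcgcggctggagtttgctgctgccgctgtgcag

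Class II antigen presentation showed the largest rise of any list. The products of these genes present peptides to CD4+ T cells and are normally made by professional antigen-presenting cells or after interferon-γ. Of 14 tested members 12 were higher, all at least 2-fold, none lower and 2 not called, with a median log2 fold change of 5.41, or 4.25 with 5 genes at the floor of the control libraries set to their bound. *CD74*, the invariant chain (GRCh38 chromosome 5, 150401637 to 150412969), measured 4.7, 7.9 and 1.9 counts in sgControl DMSO and 1199, 1054 and 933 in the treated knockout. The groups were widely separated (7.88 ± 0.37, adjusted *P* = 2.14e-97). *HLA-DRA* measured 3.7, 7.1 and 0.6 normalised counts in sgControl DMSO and 482, 385 and 452 in the treated knockout, again with no overlap (6.99 ± 0.44, adjusted *P* = 4.44e-55). *CIITA*, the master transactivator of the class, measured 27, 21.2 and 13.2 and 131, 145 and 125 counts (2.75 ± 0.27, adjusted *P* = 2.27e-22). *HLA-DRB5*, *HLA-DPA1*, *HLA-DPB1*, *HLA-DQA1* and *HLA-DMB* had 3 counts or fewer in every sgControl DMSO library and were at least 59.3-fold, 39.3-fold, 26-fold, 14.4-fold and 10.2-fold higher. *HLA-DRB1* (4.65 ± 0.24), *HLA-DQB1* (1.67 ± 0.10), *HLA-DMA* (1.49 ± 0.23) and the protease *CTSS* (5.29 ± 0.63) rose too, while *HLA-DQA2* (−1.44 ± 0.70) and *IFI30* (1.66 ± 0.75) were not called. *CTSS*, *HLA-DMA*, *HLA-DQA2*, *HLA-DQB1*, *HLA-DRB1* and *IFI30* are named after their values were seen, to account for the whole list. *HLA-DRB1* and *HLA-DRB5* are near-identical in sequence, so reads may have been split between them. In absolute terms the class stayed low, at 7.36 to 9.14 CPM over the list in sgControl DMSO and 65.4 to 69.2 in the treated knockout.

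The Y box of class II promoters was searched as CTGATTGG on both strands. It was in 5 of 12 promoters of the list (41.7%) and 4.25% of all promoters. Of the 8 members that rose and had a promoter entry, 4 held it. *HLA-DRB1* and *HLA-DMA* are shown because they hold the letters, in capitals. *CD74*, which has no match in this window, is shown in lower case throughout.
HLA-DRB1 (chr6:32589799-32590098, minus strand): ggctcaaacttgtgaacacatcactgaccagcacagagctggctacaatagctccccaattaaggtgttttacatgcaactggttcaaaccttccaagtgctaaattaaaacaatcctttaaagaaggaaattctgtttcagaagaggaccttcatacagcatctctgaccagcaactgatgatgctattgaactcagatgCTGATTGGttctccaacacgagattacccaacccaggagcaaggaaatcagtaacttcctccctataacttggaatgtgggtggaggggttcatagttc
HLA-DMA (chr6:32953048-32953347, minus strand): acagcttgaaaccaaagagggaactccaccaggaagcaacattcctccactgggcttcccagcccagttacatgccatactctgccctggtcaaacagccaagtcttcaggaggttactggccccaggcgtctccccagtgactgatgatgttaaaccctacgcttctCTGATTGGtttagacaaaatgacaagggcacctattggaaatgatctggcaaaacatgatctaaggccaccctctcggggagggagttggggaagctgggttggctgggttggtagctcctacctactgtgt
CD74 (chr5:150412861-150413160, minus strand): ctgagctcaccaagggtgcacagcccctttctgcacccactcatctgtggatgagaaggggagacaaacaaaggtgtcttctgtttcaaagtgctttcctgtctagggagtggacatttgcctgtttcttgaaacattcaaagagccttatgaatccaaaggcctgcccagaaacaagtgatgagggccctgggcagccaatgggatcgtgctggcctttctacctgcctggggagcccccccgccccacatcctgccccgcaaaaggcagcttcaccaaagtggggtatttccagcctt

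Interferon-stimulated genes, which encode antiviral effectors, rose broadly. Of 50 tested, 41 were higher, 1 lower and 8 not called, with a median of 1.39, or 1.16 with 7 genes at the control floor set to their bound. *OAS1*, an activator of antiviral RNA decay, measured 40, 39.7 and 35.9 counts in sgControl DMSO and 331, 307 and 348 in the treated knockout, without overlap (3.10 ± 0.17, adjusted *P* = 5.49e-72). *IFI27* measured 12.1, 4.4 and 5.7 normalised counts in sgControl DMSO and 172, 154 and 216 in the treated knockout (4.65 ± 0.36, adjusted *P* = 7.1e-37). The ubiquitin-like modifier *ISG15* (2.08 ± 0.17) and the GTPase *GBP3* (2.24 ± 0.19) were also higher. *EPSTI1*, on chromosome 13, was the member that fell (−1.86 ± 0.41) and is named after its value was seen.

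Class I presentation, which shows intracellular peptides to CD8+ T cells, moved less than class II. Of 19 genes 13 were higher, 2 lower and 4 not called, with a median of 0.56. The immunoproteasome subunits *PSMB8* (2.18 ± 0.10) and *PSMB9* (1.11 ± 0.13) and the class I transactivator *NLRC5* (1.78 ± 0.15) rose most. *PSMB8* measured 409.6, 321 and 314 and 1566, 1557 and 1604 counts, and the groups did not overlap (adjusted *P* = 4.19e-104). The chaperones *PDIA3* (−0.47 ± 0.08) and *CALR* (−0.35 ± 0.06) fell. The letters GAAANNGAA, part of the interferon-stimulated response element, were in 24 of 31 interferon-list promoters (77.4%) and 8.6% of all promoters. Of 25 promoters of members that rose, 19 held them. The promoter of *ISG15* is printed with its 3 overlapping matches in capitals, which begin 113, 107 and 101 bases before the gene start.
ISG15 (chr1:1013247-1013546, plus strand): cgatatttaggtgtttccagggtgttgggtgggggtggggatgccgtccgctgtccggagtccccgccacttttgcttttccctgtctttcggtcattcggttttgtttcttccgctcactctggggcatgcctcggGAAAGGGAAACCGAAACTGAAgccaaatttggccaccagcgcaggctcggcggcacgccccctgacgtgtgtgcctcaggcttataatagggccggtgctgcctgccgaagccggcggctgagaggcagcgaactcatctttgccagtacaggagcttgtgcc

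**Figure D2:**
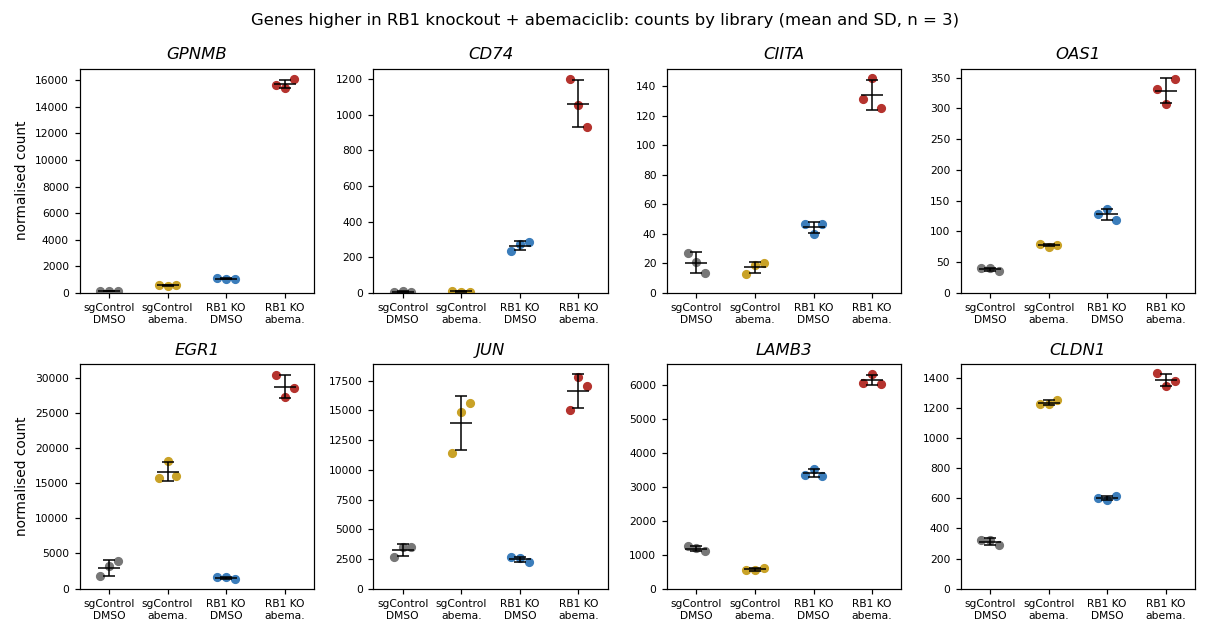
Normalised counts of 8 genes in all 12 libraries on linear axes from 0 (points, libraries; bars, mean and SD of 3). The treated knockout has the highest mean of the 4 groups for each gene, from 125 to 145 counts for CIITA to 27294 to 30406 for EGR1.

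Immediate early genes, which growth factor and stress signals induce without new protein synthesis, were higher for 25 of 35, lower for 5 and not called for 5 (median 0.71). *EGR1*, a zinc finger factor, measured 1738, 3206 and 3926 counts in sgControl DMSO and 30406, 27294 and 28452 in the treated knockout. All 3 treated libraries lay far above the 3 controls (3.28 ± 0.23, adjusted *P* = 1.78e-42). *FOS* measured 254, 524 and 706 normalised counts in sgControl DMSO and 4213, 4376 and 4652 in the treated knockout (3.16 ± 0.34, adjusted *P* = 1.38e-19). *JUN*, the AP-1 partner of FOS, measured 2685, 3489 and 3546 and 15040.3, 17824 and 17057 (2.36 ± 0.13, adjusted *P* = 6.75e-76). *EGR2* (3.49 ± 0.38) rose as far, from 9.4 ± 3.8 to 103 ± 23 counts (mean ± SD, n = 3). The orphan receptors *NR4A2* (−0.65 ± 0.20) and *NR4A3* (−0.66 ± 0.23) and *IER3* (−0.54 ± 0.09) fell, *NR4A3* not past the threshold without sgControl DMSO replicate 3 (0.102) and without treated knockout replicate 3 (0.0513). *EGR3* measured 1459, 1786 and 1746 normalised counts in sgControl DMSO and 1597, 1418 and 1568 in the treated knockout, with overlap and no call (−0.12 ± 0.09, adjusted *P* = 0.265). It was called lower without sgControl DMSO replicate 1 (0.00449), adjusted *P* in parentheses.

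Feedback and output genes of the MAPK pathway were higher for 12 of 20, lower for 2 and not called for 6 (median 0.66). The 2 that fell were nuclear MAPK phosphatases. *DUSP4* measured 14068, 14497 and 13840.1 normalised counts in sgControl DMSO and 4451, 4200.0 and 4362 in the treated knockout (−1.70 ± 0.05, adjusted *P* = 6.79e-221), and *DUSP5* measured 3441, 3484 and 3221 and 1482, 1562 and 1544 (−1.14 ± 0.06). Neither overlapped. The ETS factor *ETV1* (2.13 ± 0.12), the ephrin receptor *EPHA4* (2.56 ± 0.16) and *PHLDA1* (1.47 ± 0.13) were higher. The immediate early promoters held the cAMP response element TGACGTCA in 3 of 21 entries (14.3%), against 2.01% of all promoters.

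Genes of the MiT/TFE axis, named for the factors that drive lysosome formation, were higher for 11 of 23, lower for 5 and not called for 7 (median 0.28). *GPNMB*, a melanosomal and lysosomal glycoprotein (GRCh38 chromosome 7, 23235967 to 23275108), measured 156, 115 and 142 counts in sgControl DMSO and 15661, 15434 and 16083 in the treated knockout. The 3 libraries of each group lay close together and far from the other group (6.84 ± 0.09, adjusted *P* too small to be represented). The Rag GTPase *RRAGD* (1.42 ± 0.06) and *FNIP2* (1.34 ± 0.12), a regulator of folliculin, were higher. Of the factors, *TFE3* measured 2714, 2748 and 2786 and 3430.2, 3626 and 3616 (0.37 ± 0.05, adjusted *P* = 5.88e-13), while *MITF* was not called (0.04 ± 0.15, adjusted *P* = 0.883). *TFEB* was lower with overlapping groups (−0.43 ± 0.16, adjusted *P* = 0.0159), but not without sgControl DMSO replicate 1 (0.0652), without treated knockout replicate 2 (0.0982) and without treated knockout replicate 3 (0.121), adjusted *P* in parentheses. The autophagy genes *GABARAPL1* (−1.02 ± 0.08) and *WIPI1* (−0.58 ± 0.06) and haem oxygenase, *HMOX1* (−0.79 ± 0.09), were lower.

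Lysosome genes were split, with 23 of 60 higher, 10 lower and 27 not called, and a median of 0.05. Cathepsin D, *CTSD* (1.71 ± 0.13), sialidase, *NEU1* (1.20 ± 0.07), and *CTSZ* (0.96 ± 0.07) rose most, and *PPT1* (−0.75 ± 0.06) and *GLA* (−0.56 ± 0.09) fell. The E-box CACGTG was in 11 of 31 lysosome promoters (35.5%), 6 of 12 MiT/TFE-axis promoters (50%) and 7.28% of all promoters. The letters read the same on both strands. *NEU1*, which is on both lists, holds it 126 bases before its start (capitals), whereas *GPNMB*, whose start in that table lies inside the gene interval given above, has no match in this window and is printed in lower case.
NEU1 (chr6:31862772-31863071, minus strand): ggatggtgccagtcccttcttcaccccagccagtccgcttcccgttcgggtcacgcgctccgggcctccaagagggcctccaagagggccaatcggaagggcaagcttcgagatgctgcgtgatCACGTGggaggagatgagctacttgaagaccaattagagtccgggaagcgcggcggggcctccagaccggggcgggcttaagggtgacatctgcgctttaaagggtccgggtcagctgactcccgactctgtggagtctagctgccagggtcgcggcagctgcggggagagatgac
GPNMB (chr7:23246525-23246824, plus strand): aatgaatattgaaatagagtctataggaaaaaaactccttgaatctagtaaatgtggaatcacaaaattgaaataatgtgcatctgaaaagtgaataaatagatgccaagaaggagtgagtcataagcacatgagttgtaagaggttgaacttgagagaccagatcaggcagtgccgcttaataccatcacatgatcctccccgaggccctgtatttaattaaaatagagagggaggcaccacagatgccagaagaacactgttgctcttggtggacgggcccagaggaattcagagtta

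Sterol and fatty acid synthesis genes showed no common direction, with 9 of 34 higher, 9 lower and 16 not called (median 0.01). The largest changes with a mean count of at least 50 were in *FADS1* (0.54 ± 0.07), *SC5D* (0.50 ± 0.08) and *TM7SF2* (0.42 ± 0.08), which rose, and *PMVK* (−0.51 ± 0.09), *HSD17B7* (−0.31 ± 0.08) and *FDFT1* (−0.28 ± 0.05), which fell. The sterol element TCACNCCAC was in 1 of 19 promoters of the list (5.26%) and 1.16% of all.

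Extracellular matrix and mesenchymal genes rose, 25 of 30 higher, 2 lower and 3 not called, with a median of 0.98. *LAMB3* measured 1251, 1186 and 1096 normalised counts in sgControl DMSO and 6059, 6308 and 6033 in the treated knockout, without overlap (2.38 ± 0.07, adjusted *P* = 3.12e-288). *LAMB3* encodes a laminin chain of the basement membrane. Another laminin gene, *LAMB1* (1.82 ± 0.11), rose as well, and *ITGB1* (−0.24 ± 0.07) was lower. Tight junction genes were higher for 10 of 23, lower for 4 and not called for 9 (median 0.26). *CLDN1*, which encodes claudin-1, measured 326, 324 and 287 and 1430.3, 1346 and 1378 counts (2.16 ± 0.08, adjusted *P* = 6.6e-174), *OCLN* (1.23 ± 0.10) and *CLDN23* (1.17 ± 0.14) were higher, and *TJP3* (−0.32 ± 0.06) and *EPCAM* (−0.32 ± 0.08) were lower.

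Keratins, the intermediate filaments of epithelium, were higher for 9 of 15, lower for 2 and not called for 4 (median 1.05). The stress and basal keratins *KRT16* (3.52 ± 0.30) and *KRT15* (2.05 ± 0.11) and the hair keratin *KRT81* (2.02 ± 0.08) led. *KRT17* measured 28.9, 22 and 29.6 and 122, 94.8 and 105 counts (1.99 ± 0.25, adjusted *P* = 1.46e-14). The luminal keratins *KRT8* (0.60 ± 0.10) and *KRT18* (0.61 ± 0.11), which have many pseudogenes, were higher by less, and *KRT10* (−0.46 ± 0.09) and *KRT7* (−0.33 ± 0.11) were lower, *KRT7* not past the threshold without sgControl DMSO replicate 1 (0.0841) and without treated knockout replicate 2 (0.0575), adjusted *P* in parentheses. *ACTA2* (0.52 ± 0.12), smooth muscle actin, was higher, and the oxytocin receptor gene *OXTR* (−0.30 ± 0.11) was lower, but not with only the 6 libraries fitted (0.0757), without sgControl DMSO replicate 3 (0.114) and without treated knockout replicate 1 (0.0554).

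**Figure D3:**
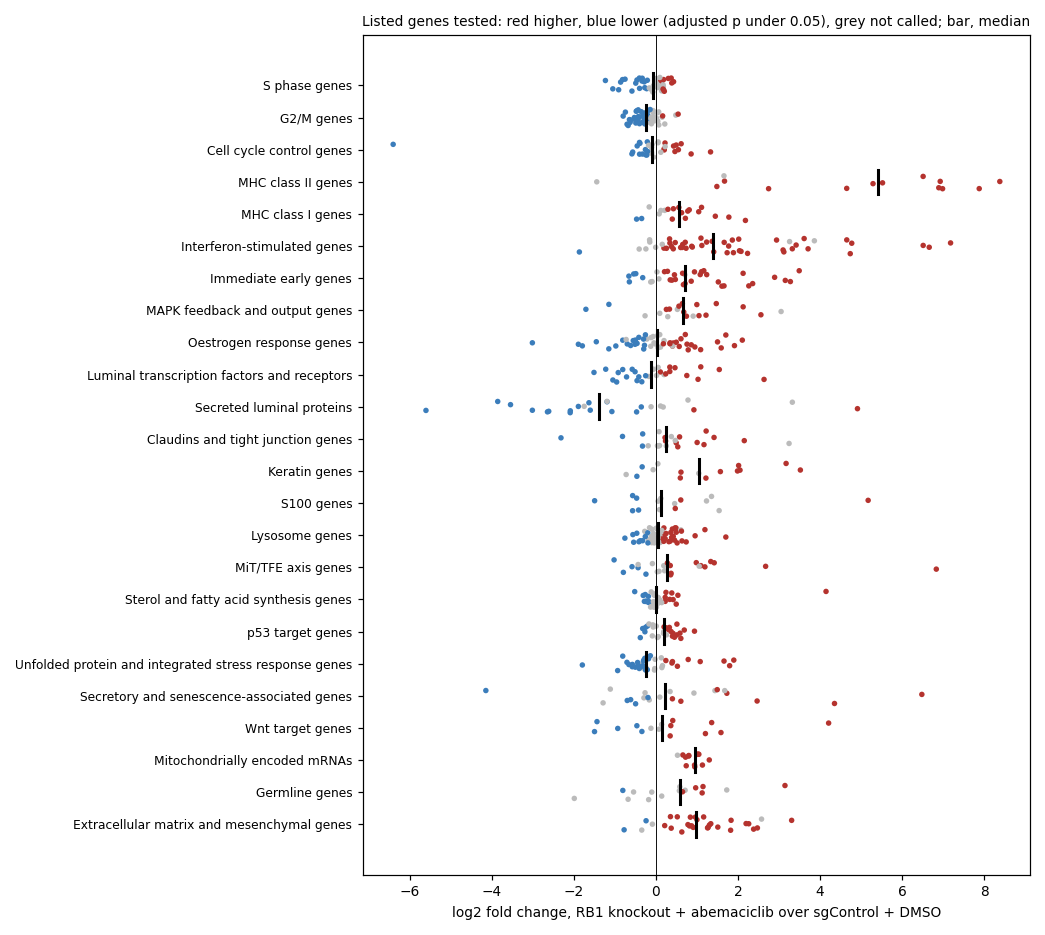
Log2 fold changes of the tested members of 24 gene lists, treated knockout over untreated sgControl (points, genes; black bars, list medians). The class II list lies farthest to the right, with a median of 5.41, secreted luminal proteins farthest to the left, with −1.39, and S phase genes near 0, with −0.06. Extreme points include genes at 3 counts or fewer in the control, whose fitted values are not bounds.

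Secreted products of luminal breast cells fell more than any other list, with 2 of 24 higher, 15 lower and 7 not called. The median was −1.39, or −1.19 with 1 gene at the control floor and 1 at the treated floor set to their bounds. Mammaglobin A, *SCGB2A2* (GRCh38 chromosome 11, 62270158 to 62273160), measured 14072, 10264 and 8688 counts in sgControl DMSO and 251, 225 and 204 in the treated knockout. No library of one group approached the other (−5.60 ± 0.15, adjusted *P* too small to be represented). Its relative *SCGB1D2* (−3.85 ± 0.19) and matrix Gla protein, *MGP* (−3.54 ± 0.10), which measured 25173, 21589.9 and 17711 and 1855, 1782 and 1900.3, also fell. *WFDC2* (0.93 ± 0.20) rose. *SERPINA1*, encoding α1-antitrypsin, was not called (−0.12 ± 0.11, adjusted *P* = 0.422), but was lower without sgControl DMSO replicate 3 (0.0191), adjusted *P* in parentheses.

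Luminal transcription factors and receptors were higher for 10 of 28, lower for 13 and not called for 5, with a median of −0.11. *ESR1*, the oestrogen receptor gene (GRCh38 chromosome 6, 151656691 to 152129619), measured 9834, 12615 and 13711 counts in sgControl DMSO and 6168, 6833 and 6157 in the treated knockout. All treated libraries lay below all controls (−0.92 ± 0.10, adjusted *P* = 4.55e-19). The ETS factor *EHF* (−1.51 ± 0.06), the kinase *FGFR4* (−1.22 ± 0.04) and the AP-2 factor *TFAP2C* (−1.05 ± 0.06) fell furthest. Receptor tyrosine kinase genes also rose: *MET* from 63.3, 69.6 and 81.9 to 434, 451 and 466 counts (2.64 ± 0.14, adjusted *P* = 4.55e-74), *EGFR* from 113, 186 and 171 to 439, 486 and 449.9 (1.55 ± 0.17, adjusted *P* = 5.4e-18) and the insulin receptor gene *INSR* (1.10 ± 0.11). *ERBB3* (0.24 ± 0.07) rose slightly.

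Oestrogen response genes had no common direction in the combined comparison, at 19 of 50 higher, 18 lower and 13 not called (median 0.02). The balance turned to 19 higher and 21 lower without replicate 1 of sgControl DMSO. The separate steps, given below, leaned in opposite directions. *TFF1*, a trefoil peptide, measured 82895, 67929 and 58531 and 9319, 8279 and 8409 counts (−3.01 ± 0.11, adjusted *P* = 3.09e-173). *TFF3* (−1.89 ± 0.11), the glycoprotein hormone *STC2* (−1.79 ± 0.08), *XBP1* (−0.81 ± 0.08) and *AGR2* (−0.97 ± 0.10) and *IGFBP4* (−0.70 ± 0.07) were lower. Higher were the neuropeptide receptor *NPY1R* (2.11 ± 0.11), the chemokine *CXCL12* (1.92 ± 0.13), *CTSD* and *GREB1* (0.57 ± 0.14). The progesterone receptor gene *PGR* measured 4058, 5701 and 5562 and 5664, 6194 and 5747, with overlap and no call (0.20 ± 0.10, adjusted *P* = 0.113), though it was called higher without sgControl DMSO replicate 2 (0.0246) and without sgControl DMSO replicate 3 (0.0308), adjusted *P* in parentheses.

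**Figure D4:**
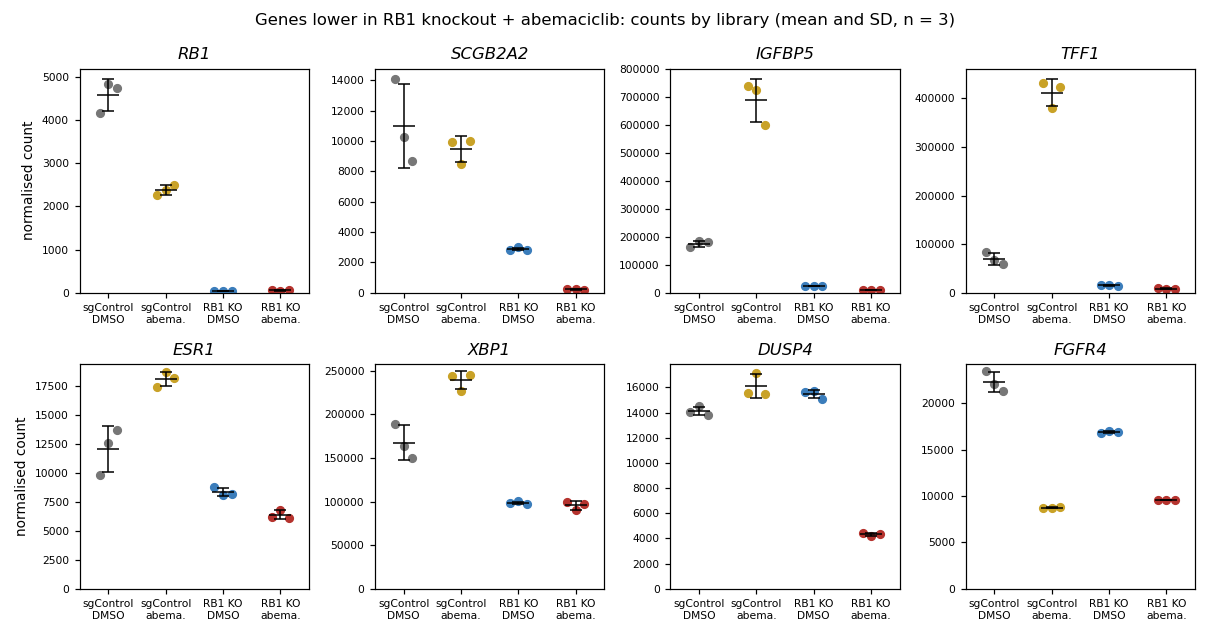
Normalised counts of 8 genes in all 12 libraries on linear axes from 0 (points, libraries; bars, mean and SD of 3). The treated knockout lies below untreated sgControl for each. For IGFBP5, TFF1, ESR1, XBP1 and DUSP4 sgControl cells in abemaciclib have the highest mean, for DUSP4 with libraries that overlap those of the untreated knockout.

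Several other lists had small medians. Of all 21529 tested genes, 21.6% were called higher and 20.6% lower. Of the 11889 with a mean count of at least 100, 3305 were higher and 4035 lower. No direction is read, here or in the lists that follow, where the counts of a list lie near these shares. Targets of p53 were higher for 14 of 29, lower for 5 and not called for 10 (median 0.20), with *BTG2* (0.94 ± 0.08), *BBC3* (0.69 ± 0.09) and *GDF15* (0.61 ± 0.11) highest and *AEN* (−0.38 ± 0.05), *FAS* (−0.32 ± 0.11) and *SESN1* (−0.27 ± 0.10) lowest. *FAS* did not pass without sgControl DMSO replicate 1 (0.0638) and without treated knockout replicate 2 (0.0655) and *SESN1* did not with only the 6 libraries fitted (0.0694), without sgControl DMSO replicate 3 (0.192), without treated knockout replicate 1 (0.124) and without treated knockout replicate 3 (0.0874), adjusted *P* in parentheses. The CDK inhibitor gene *CDKN1A* measured 21753, 20601 and 18643 and 23146, 23384 and 23539 (0.20 ± 0.06, adjusted *P* = 0.0037) and did not pass with only the 6 libraries fitted (0.0537), and *MDM2* (0.33 ± 0.08) was higher. Unfolded protein and integrated stress response genes were higher for 9 of 38, lower for 20 and not called for 9 (median −0.24). *DDIT4* (1.90 ± 0.10), *NUPR1* (1.80 ± 0.10) and *PPP1R15A* (1.66 ± 0.15) rose and *SLC7A5* (−0.93 ± 0.07) fell, while the factors *ATF4* (−0.03 ± 0.08, adjusted *P* = 0.793) and *DDIT3* (0.16 ± 0.21, adjusted *P* = 0.588) were not called. None of 22 promoters of that list held TGATGNAAT, which was in 1.06% of all promoters.

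Secretory and senescence-associated genes, a list that also holds nuclear proteins such as that of *HMGB2*, were higher for 7 of 22, lower for 5 and not called for 10 (median 0.22, or 0.15 at the bounds). *ICAM1* (2.47 ± 0.23), *TIMP2* (1.73 ± 0.08) and *TIMP1* (1.5 ± 0.13) were higher. *IGFBP5*, a binding protein of insulin-like growth factors (GRCh38 chromosome 2, 216672105 to 216695549), measured 162562, 183967 and 180534 and 9965, 10333 and 9544 counts, a complete separation (−4.14 ± 0.08, adjusted *P* too small to be represented). S100 genes were higher for 3 of 15, lower for 5 and not called for 7 (median 0.12), with *S100A10* (0.61 ± 0.09) and *S100A11* (0.47 ± 0.11) higher and *S100P* (−1.49 ± 0.19), *S100A13* (−0.57 ± 0.13) and *S100A16* (−0.57 ± 0.09) lower. Wnt targets were higher for 7 of 15, lower for 5 and not called for 3 (median 0.14). The Wnt antagonist *DKK1* (4.21 ± 0.27), *TCF7* (1.59 ± 0.17) and *APCDD1* (1.21 ± 0.19) were higher and *NKD1* (−1.49 ± 0.16), *TNFRSF19* (−1.43 ± 0.15), *AXIN2* (−0.93 ± 0.27) and *LEF1* (−0.46 ± 0.07) were lower.

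Of 13 mRNAs encoded by the mitochondrial genome 12 were higher, none lower and 1 not called, with a median of 0.94. *MT-ND1* measured 75913, 74351 and 54414 normalised counts in sgControl DMSO and 202788, 157040.1 and 145095 in the treated knockout (1.30 ± 0.13, adjusted *P* = 1.59e-21), and *MT-CO3* (1.14 ± 0.22) and *MT-ND6* (1.05 ± 0.12) were similar. Germline genes were mostly near the limit of detection. Of 16 tested, 5 were higher, 1 lower and 10 not called (median 0.58), among them *TEX19* (1.13 ± 0.09), *SYCP2* (0.97 ± 0.24) and *TEX15* (0.65 ± 0.17), higher, and *SYCE2* (−0.80 ± 0.23), lower.

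Outside the lists, the largest rises included *SCIMP*, an adaptor of class II signalling in immune cells, which had 3 counts or fewer in every sgControl DMSO library and measured 582, 633 and 602 in the treated knockout, at least 248-fold higher. *NPC1L1* measured 6.5, 4.4 and 8.8 normalised counts in sgControl DMSO and 456, 420.1 and 404 in the treated knockout (5.97 ± 0.32, adjusted *P* = 3.82e-75). It encodes a cholesterol uptake transporter. *GLYATL2* (5.28 ± 0.33), a glycine acyltransferase, *SPRR3* (5.24 ± 0.33), a cornified envelope protein, *APOL6* (5.20 ± 0.16), the small GTPase *RAC2* (5.20 ± 0.31), *MUC20* (4.56 ± 0.29) and the non-coding RNA *LINC01133* (4.93 ± 0.36) followed. The largest falls besides those above were *RFLNA* (−3.50 ± 0.12), *ALDH2* (−2.89 ± 0.09), the mitochondrial aldehyde dehydrogenase, and *ABCC11* (−2.82 ± 0.08), an efflux transporter. *ALDH2* measured 3826, 3339 and 3329 and 467, 478 and 467, and *ABCC11* 3551, 3883 and 3819 and 526, 541 and 524. Neither pair of groups overlapped.

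The combined difference was divided into a genotype step, knockout against sgControl in DMSO, and a drug step, abemaciclib against DMSO in the knockout. The steps share the untreated knockout libraries, and each shares a group with the combined comparison. The genotype step was called for 37.4% of the genes tested in it and the drug step for 30%. Of the 9074 genes, 2944 (32.4%) were called only in the genotype step, 2385 (26.3%) only in the drug step, 1590 (17.5%) in both with the same direction, 405 (4.46%) in both with opposite directions and 1750 (19.3%) in neither. Of the 2146 genes with at least a 2-fold difference, 569 had only the genotype step called, 332 only the drug step and 620 both in the same direction.

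The leading genes fell into different classes. *GPNMB* differed by 2.94 ± 0.09 in the genotype step and 3.90 ± 0.06 in the drug step. *CD74* rose by 5.88 ± 0.38 in the genotype step and 2.01 ± 0.14 in the drug step, and *CIITA* by 1.15 ± 0.30 and 1.60 ± 0.26. *RB1*, *SCIMP* and *CTSD* (1.78 ± 0.13) were called only in the genotype step. *EGR1*, *FOS* and *JUN* moved down in the genotype step (−0.90, −0.89 and −0.39) and up in the drug step (4.18, 4.04 and 2.75). *SCGB2A2* differed by −1.93 ± 0.14 in the genotype step and −3.67 ± 0.15 in the drug step, and *IGFBP5* by −2.87 ± 0.08 and −1.27 ± 0.08. In the class II list 12 of 14 tested members were called higher in each step and none lower. In the interferon list 28 of 50 were higher in each step, with 1 lower in the genotype step and 2 in the drug step. Over all genes tested in the steps, 37.4% (genotype) and 30% (drug) were called in either direction. The shares by direction were not computed.

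Steps of opposite sign partly cancelled. In the oestrogen response list the genotype step had 10 of 50 members higher and 28 lower (median −0.29). The drug step in the knockout had 26 higher and 5 lower (median 0.22). The steps share the untreated knockout libraries, and no cause was tested. Both steps were called with opposite signs for 1091 genes, and 405 of them were still called in the combined comparison. The test of a combined difference smaller than 2-fold was passed by 978 of the 1091, and by 68.9% of all genes that could be tested this way. The combined difference is the sum of the steps, so nothing is read from that count. Among those of the 978 with a mean count of at least 100, the 5 whose smaller step was largest were *EGR3* (−1.87 and 1.75), *SERPINA1* (−1.74 and 1.62), the circadian repressor *BHLHE40* (−1.82 and 1.53, combined −0.29 ± 0.07), the adrenergic receptor gene *ADRA2A* (−1.30 and 1.94, combined 0.64 ± 0.12) and *DDN* (1.78 and −1.18, combined 0.61 ± 0.17). The combined difference of the last 3 was called. *BHLHE40* measured 5492, 5995 and 6434 counts in sgControl DMSO and 4799, 4881 and 4933 in the treated knockout, with a mean of 1687 in the untreated knockout.

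**Figure D5:**
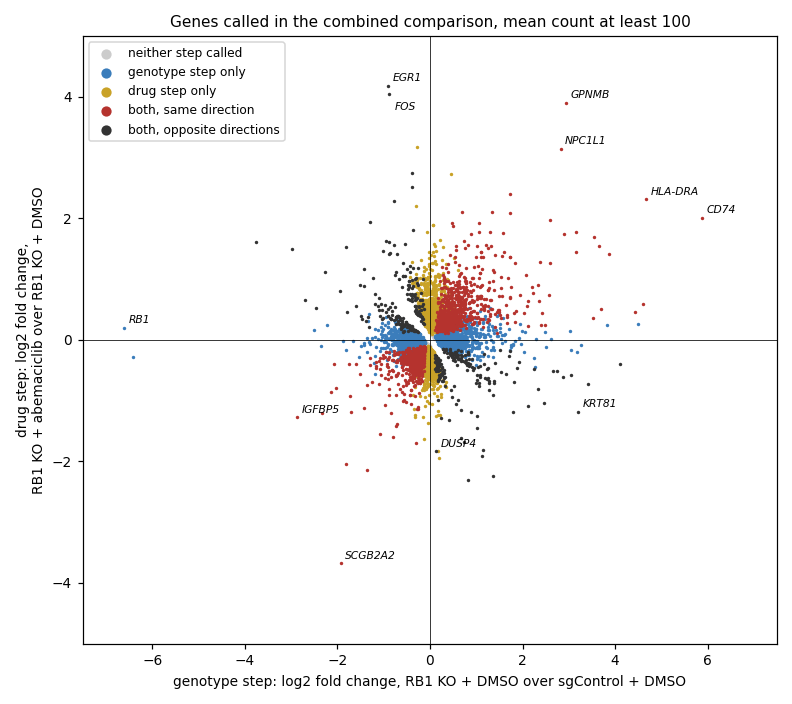
Genotype step (x axis) and drug step (y axis) in log2 fold change for 7339 genes called in the combined comparison with a mean count of at least 100, coloured by the steps called. The position of 1 gene lies outside the axes. GPNMB, CD74 and HLA-DRA lie high in both steps, RB1 far left at a drug step near 0, EGR1 and FOS high at negative genotype steps, and SCGB2A2 low in both.

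The drug response was also compared between genotypes by the interaction term, which was called for 41.4% of the genes tested in it. It was called for 5230 (57.6%) of the genes of the combined comparison and for 1087 (50.7%) of those with at least a 2-fold difference. The interaction shares libraries with the combined comparison, so no excess is read from these shares. For *GPNMB* the drug response was 3.90 ± 0.06 in the knockout and 2.03 ± 0.09 in sgControl cells (interaction adjusted *P* = 4.37e-61). For *EGR1* it was 4.18 ± 0.24 and 2.49 ± 0.23 (interaction adjusted *P* = 2.24e-06), and for *FOS* 4.04 ± 0.34 and 3.21 ± 0.34, for which a difference was not detected (interaction adjusted *P* = 0.16). *MGP* and *TFF1*, lower in the treated knockout than in untreated sgControl, had responses of −1.20 ± 0.10 and −0.86 ± 0.11 in the knockout and 4.32 ± 0.10 and 2.56 ± 0.11 in sgControl cells (interaction adjusted *P* too small to be represented and adjusted *P* = 1.43e-112).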

How the data were processed

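RNA sequencing of ZR-75-1 cells was deposited as 1 table of raw read counts per gene for 12 samples. The authors trimmed reads with BBDuk, aligned them to hg38 with STAR 2.7.5b and counted them with featureCounts 2.0.1 against GENCODE, without normalization or pooling. Whether they counted by strand is not given in the sources used here. The labels name a directional whole-transcript kit and the study's general methods a 3′ kit.

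Of 60656 rows, 44 without a gene name (0% of counts after rounding) were left out. DESeq2 1.42.0 in R 4.3.3 was fitted to all 12 libraries with a term for group and median-of-ratios size factors. Two-sided Wald tests compared the groups, with Benjamini–Hochberg adjustment over the genes left by independent filtering and a threshold of 0.05. A second test asked whether a log2 difference was under 1. edgeR 4.0.16 was an alternative, and the scripts were tested on simulated data, in which DESeq2 called more unchanged genes than the adjusted threshold aims for and edgeR called fewer of them than DESeq2. For a gene with at most 3 counts in each library of a group, the fold is a bound against a floor of 3 counts per library and covers counting error only. Coordinates are from GENCODE release 44, GRCh38.

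The comparison and the 28 gene lists were chosen with earlier results of these data known. Named genes are fixed ones (regulators, receptors and proliferation genes), the 10 largest called changes in each direction with a mean count of at least 100 and no overlap, the 3 largest called in each direction in each list with a mean of at least 50, and the 5 largest with 2 opposite or 2 like steps. Some genes that this rule selects are not reported here. *CDC6*, *GATA3*, *CSF1R*, *CD3E*, *CD3D*, *SOX10*, *LUM*, *EPSTI1*, *CTSS*, *IFI30* and further class II genes were added after values were seen. Of 171 genes selected, 87 lie across a gene of the opposite strand and 46 across one of their own strand, so reads may be shared. Depth, at 49711542 to 81636393 counts per library, limits genes with few counts.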

Additional observations from a re-analysis of the deposited data

Results flagged for a closer look

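A direct test of whether the response to abemaciclib differed between the genotypes was passed by 5230 of the genes called between treated knockout and untreated sgControl and by 1087 of those with at least a 2-fold difference. DESeq2's interaction term was used, with an adjusted *P* under 0.05. The shares were 57.6% and 50.7%, beside 41.4% of all genes tested for the term. The term shares libraries with the combined comparison, so no excess is read from these shares. Among the genes that passed, *IGFBP5* responded by −1.27 ± 0.08 in the knockout and 1.97 ± 0.08 in sgControl cells (adjusted *P* = 1.43e-186), and *KRT81* by −1.18 ± 0.08 and −3.44 ± 0.11 (adjusted *P* = 2.39e-60).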

How the results depend on the processing

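Under edgeR, total-count factors, other filters, a fit of the 6 libraries alone or without chromosome 13, the number of genes called went from 9074 to between 7770 (only the 6 libraries) and 9246 (edgeR, 4569 higher and 4677 lower). Total-count factors gave 8714 genes, 4241 higher and 4473 lower, with the median gene moved by −0.02. Of the calls, 8753 were made by DESeq2 and edgeR with the same sign. Leaving out 1 of the 6 libraries of the compared groups at a time (the other 6, on which the steps and the interaction also rest, were each kept) gave 7857 to 9009 genes, 4480 to 5687 with an interaction and 91 to 93 proliferation genes within 2-fold. The classes of steps then held 2694 to 2974 (genotype only), 1927 to 2623 (drug only), 1197 to 1880 (both, same direction), 271 to 552 (both, opposite) and 1226 to 1607 genes (neither). The oestrogen list went to 40 called, 19 higher and 21 lower, without replicate 1 of sgControl DMSO, with a range of 36 to 40, and the cause was not tested. The haematopoietic list went from 1 called to 0 with a mean count of at least 10, which removed the low genes, and to 2 without replicate 2 of sgControl DMSO or of the treated knockout, with a range of 1 to 2. No named gene changed direction in a called result: of 2052 gene and setting pairs 2013 kept their side of the threshold, 31 lost a call and 8 gained one.

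With the replicate number as a block 8826 genes were called, 4506 higher and 4320 lower. Same-numbered libraries of the groups deviated together with correlations of 0.37, 0.26 and −0.06 across genes, so the numbers were not taken as pairs. Not every library correlated best with its own number. With the block *SESN1* was not called (adjusted *P* = 0.0504). Low counts limit the class II, haematopoietic and germline lists most.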
